A study of Mus musculus with 4 samples.

Results

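The genes described here are the Dlx homeobox genes of the forebrain and a set of genes of young migrating neurons. They are Dlx1, Dlx2, Dlx5, Dlx6 and the antisense RNA Dlx6as1, the zinc finger genes Sp8 and Sp9, and Dcx, Sox11 and Igfbpl1. They were taken from the table by their symbols, and all 10 were found among 17778 genes. Messenger RNA had been sequenced from the medial prefrontal cortex (mPFC) of C57BL/6 mice, which the methods of the study give as juvenile C57BL/6J males. The control group (2 libraries) lived without stress. The CUMS group (2 libraries) went through chronic unpredictable mild stress, a schedule of changing mild stressors such as isolation, restraint and disturbed light cycles, and only those mice were used that had turned depression-like in tests of sucrose preference, Y-maze and forced swimming. The table holds 1 mean per gene and group, given as RPKM (read counts corrected for gene length and for library depth). Which mice each library holds is not stated, and values of single libraries were not analysed here. The differences below therefore have no replicate check within these values, and no p-value is given. The errors are 95% counting intervals, computed from an estimated depth of 7385524 fragments for a control library and 7440476 for a CUMS library. They cover counting error only. The read totals and mapping rates in the supplement of the study are well above this estimate, and the gap was not resolved. More independent fragments would make the intervals narrower.

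Dlx genes encode homeodomain transcription factors. In the embryo they are switched on in the ganglionic eminences, the ventral forebrain zones that make GABAergic neurons, and they act there in adjacent pairs, with Dlx1 and Dlx2 ahead of Dlx5 and Dlx6. In the adult they stay on in the neuroblasts that leave the subventricular zone for the olfactory bulb, in many bulb and striatal GABAergic neurons and in a part of the cortical interneurons. Sp8 and Sp9 are transcription factors of the same neuroblasts and of interneurons from the ganglionic eminences. Dcx is a microtubule-binding protein of migrating neurons, Sox11 a transcription factor of immature neurons, and Igfbpl1 a secreted protein found in young neurons.

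The homeobox, the part of the gene that encodes the DNA-binding homeodomain, is shown for the 4 coding Dlx genes because their reads must be told apart by differences such as these. The sequences of 180 bases were read from GENCODE M21 transcripts (GRCm38, the mm10 build), 5′ to 3′ on the coding strand, and capitals mark bases that differ from Dlx1. Each lies in coding exons, split by an intron, on chr2:71531025-71531156 and chr2:71532264-71532311 (Dlx1, plus strand), chr2:71545384-71545515 and chr2:71544877-71544924 (Dlx2, minus strand), chr6:6879526-6879657 and chr6:6878441-6878488 (Dlx5, minus strand), and chr6:6865140-6865271 and chr6:6867041-6867088 (Dlx6, plus strand).
Dlx1: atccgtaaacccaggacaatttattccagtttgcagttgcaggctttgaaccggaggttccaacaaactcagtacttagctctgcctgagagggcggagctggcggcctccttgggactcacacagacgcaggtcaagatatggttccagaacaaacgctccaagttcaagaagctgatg
Dlx2: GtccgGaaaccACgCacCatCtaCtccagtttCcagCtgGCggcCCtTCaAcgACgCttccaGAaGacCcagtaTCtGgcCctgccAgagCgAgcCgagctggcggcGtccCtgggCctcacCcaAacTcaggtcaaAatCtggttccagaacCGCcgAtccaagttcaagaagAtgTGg
Dlx5: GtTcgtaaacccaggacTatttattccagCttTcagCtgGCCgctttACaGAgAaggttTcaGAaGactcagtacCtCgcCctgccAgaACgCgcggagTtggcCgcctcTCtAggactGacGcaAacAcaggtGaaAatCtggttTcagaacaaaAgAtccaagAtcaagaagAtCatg
Dlx6: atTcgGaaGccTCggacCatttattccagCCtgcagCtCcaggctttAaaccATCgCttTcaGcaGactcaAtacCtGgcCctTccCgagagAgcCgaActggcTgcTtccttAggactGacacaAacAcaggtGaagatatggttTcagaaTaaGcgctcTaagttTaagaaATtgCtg
The homeobox of Dlx2 differed from that of Dlx1 at 47 bases, Dlx5 at 43 and Dlx6 at 42, and the identity of the 6 pairs lay between 71.1% and 76.7%. The longest run of bases shared by any transcripts of a pair of these genes was 23 (Dlx2 and Dlx6) and the shortest was 12 (Dlx1 and Dlx6). Sp8 and Sp9 shared at most 44 bases in a row, Sox11 and its relative Sox4 shared 48, and Dcx and its relative Dclk1 shared 23.

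All 10 genes were lower in CUMS. The largest differences were those of Sp8 and Sp9, followed by the 4 coding Dlx genes, whereas Dcx and Sox11 differed little. A lower mean was seen in 10 of 10 genes, against 53.2% of the 14257 expressed genes, which are those that reached 0.5 RPKM in a group. A mean lower by more than 1.5-fold, the fold threshold of the study, was seen in 6 of 10 genes, against 4.42% of those genes (630 of 14257) and 2.98% of the 7510 genes whose larger mean was between 2 and 20 RPKM, the range of the genes described here. The study also required a minimum probability from its own comparison, which was not applied here. Its published list of changed mRNAs holds none of the genes described here. That list does hold some genes compared with them below, among them Gad1, Gad2, Slc32a1, Calb2, Doc2g and Zic1. The study also reported Gad1 as lower by quantitative RT-PCR, on tissue used for the sequencing. The counting interval lay under 0 in 9 of 10, against 16.8%. The genes were proposed with results of these data known, so that these counts describe them and are no evidence from outside the data. Their median log2 ratio was -0.63, against -0.02 over the 14257 genes.

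**Figure D1:**
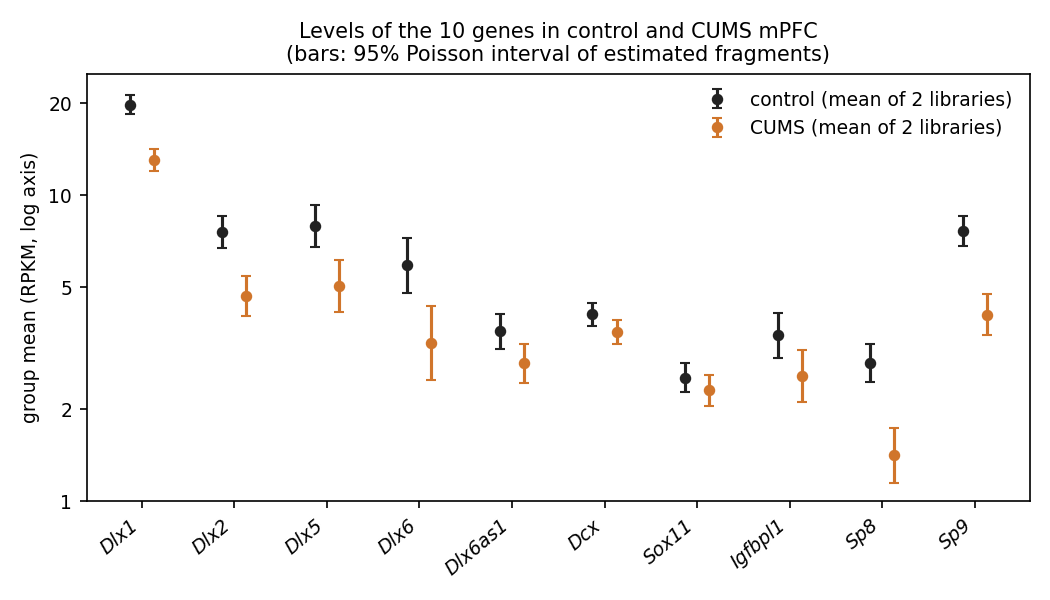
Group means of the 10 genes on a log axis in RPKM, black for control and orange for CUMS, each the authors' mean of 2 libraries, with 95% Poisson intervals of the estimated fragments as bars. The orange point lies under the black point in each gene, and the bars of both groups are apart for Dlx1, Dlx2, Dlx5, Dlx6, Sp8 and Sp9.

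Dlx1 was the most abundant of them in both groups. It is found on chromosome 2 (71528113 to 71533981, gene 13390; all gene spans are from RefSeq on GRCm38.p6). Its mean was 19.755 RPKM in control (811 estimated fragments, interval 18.4 to 21.2 RPKM) and 13.025 RPKM under CUMS (539 fragments, 12 to 14.2 RPKM). This is a log2 ratio of -0.60 (-0.76 to -0.44), or 65.9% of the control mean. The intervals of the levels did not overlap. It was the smallest difference of the 4 coding Dlx genes, 1.52-fold and so close to the 1.5-fold threshold, and the best measured one.

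Dlx2 is the neighbour of Dlx1 on chromosome 2 (71543408 to 71546754, gene 13392), transcribed from the opposite strand and 9.43 kb away. It had a mean of 7.595 RPKM in control (280 fragments) and 4.68 RPKM under CUMS (174 fragments), a log2 ratio of -0.70 (-0.98 to -0.42). The ratio of Dlx1 to Dlx2 was 2.6 in control and 2.78 in CUMS, so that this pair kept nearly the same proportion.

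Dlx5 and Dlx6 form the second pair, on chromosome 6. Dlx5 (6877801 to 6882068, gene 13395) had a mean of 7.965 RPKM in control (166 fragments) and 5.075 RPKM under CUMS (107 fragments), a log2 ratio of -0.65 (-1.01 to -0.29). Dlx6 (6863334 to 6867970, gene 13396) had a mean of 5.915 RPKM in control (94 fragments) and 3.295 RPKM under CUMS (53 fragments), a log2 ratio of -0.84 (-1.35 to -0.34). Dlx6 had the most negative ratio among the Dlx genes, but also the fewest fragments and the widest interval, and the intervals of all 4 coding Dlx genes overlapped. Summed over these 4, the level had a mean of 41.23 RPKM in control and 26.07 RPKM under CUMS.

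Dlx6as1 (now Dlx6os1, gene 320038, chromosome 6, 6820543 to 6871627) is a long noncoding RNA, in the mouse also known as Evf2, that is transcribed from the strand opposite to Dlx6 and is known to act on the enhancers of the Dlx5 and Dlx6 pair. It had a mean of 3.61 RPKM in control (226 fragments) and 2.84 RPKM under CUMS (179 fragments), a log2 ratio of -0.35 (-0.64 to -0.06). It was the only one of the 5 Dlx rows that did not pass 1.5-fold. The ratio of Dlx6 to Dlx6as1 went from 1.64 to 1.16. The intervals of their log2 ratios overlapped, and the difference between them was not tested.

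The libraries were made with random primers, and the use of strand in the counting was not stated. In the annotation of GENCODE M21, the exons of Dlx6 (2375 bases over all transcripts) and of Dlx6as1 (5215 bases) share 0 bases. The span of Dlx6as1 runs across Dlx6, with its exons on either side of it. A further antisense RNA, Dlx6as2, shares 104 exonic bases with Dlx6, 4.38% of Dlx6, and had 3 estimated fragments in control and 0 in CUMS. The rows of Dlx6 and Dlx6as1 therefore do not rest on the same exonic bases in that annotation. With the fragments of both rows added up, the control group had 320 and the CUMS group 232, a log2 ratio of -0.47. Dlx1 and its antisense RNA Dlx1as (gene 111970) share 335 exonic bases, 6.21% of Dlx1. Dlx1as had a mean of 14.69 RPKM in control and 10.67 RPKM under CUMS, a log2 ratio of -0.46 (-0.64 to -0.28), and reads from the shared bases cannot be told apart without strand. The table used a length of 2793 bases for Dlx1as, whereas its longest GENCODE transcript has 700. The 4247 bases used for Dlx6as1 match no GENCODE transcript either, the nearest having 4446, so that the overlaps in the authors' own annotation were not determined. Lengths of other genes differed too, as for Dlx1 (2779 bases, nearest 3385) and Sp9 (2813 bases, nearest 4514), while Dlx6 matched at 1071. Levels compared between genes depend on these lengths, whereas the log2 ratios between the groups do not.

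**Figure D2:**
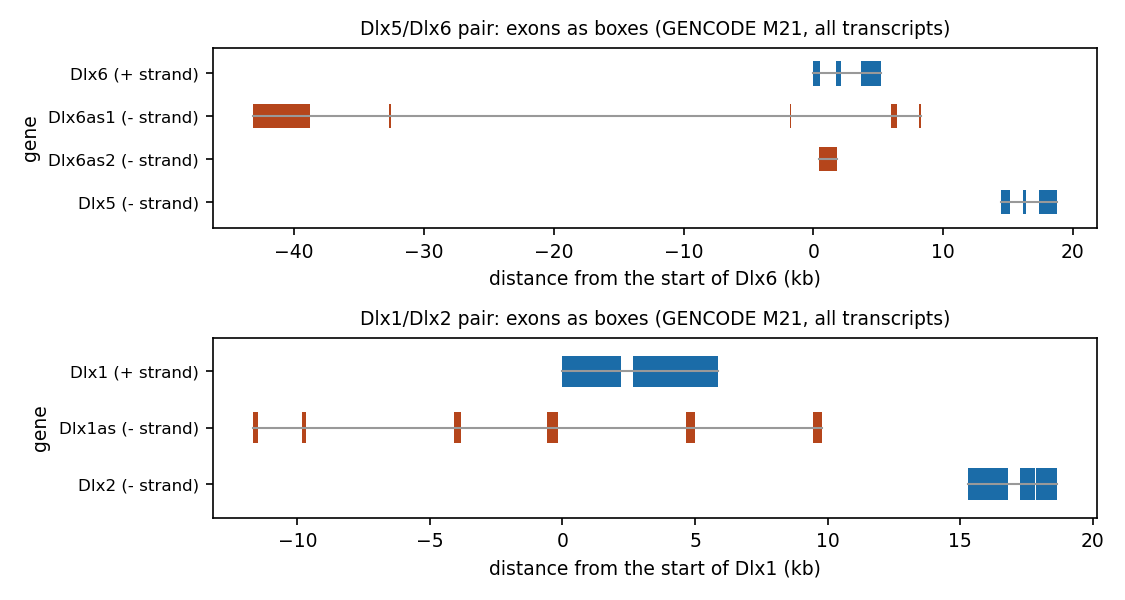
Exons of the Dlx5 and Dlx6 pair (top) and the Dlx1 and Dlx2 pair (bottom) as boxes on lines for the gene spans, in kb from the start of Dlx6 or Dlx1, from GENCODE M21, blue for coding Dlx genes and red for antisense RNAs. The exons of Dlx6as1 lie on either side of Dlx6 and share 0 bases with it, and an exon of Dlx1as covers 335 bases of Dlx1.

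Sp9 and Sp8 were lower by more than any Dlx gene. Sp9 (gene 381373, chromosome 2, 73271926 to 73275771) had a mean of 7.665 RPKM in control (318 fragments) and 4.075 RPKM under CUMS (171 fragments), a log2 ratio of -0.91 (-1.18 to -0.63). Sp8 (gene 320145, chromosome 12, 118846288 to 118852578) had a mean of 2.835 RPKM in control (188 fragments) and 1.42 RPKM under CUMS (95 fragments), a log2 ratio of -0.998 (-1.37 to -0.63). The CUMS means of Sp9 and Sp8 were 53.2% and 50.1% of the control means. The proportion of Sp9 to Sp8 was 2.7 in control and 2.87 in CUMS. Their intervals overlapped those of Dlx1, Dlx2, Dlx5 and Dlx6. Overlap alone does not settle whether ratios differ, and the order of the coding Dlx genes and the Sp genes was not tested. Among the 7510 genes with a larger mean of 2 to 20 RPKM, 0.826% had a lower ratio than Sp8 and 1.07% a lower ratio than Sp9, against 2.78% for Dlx1.

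The genes of migrating and immature neurons differed less. Dcx (gene 13193, X chromosome, 143855842 to 143933396) had a mean of 4.085 RPKM in control (542 fragments) and 3.58 RPKM under CUMS (479 fragments), a log2 ratio of -0.19 (-0.37 to -0.01). Sox11 (gene 20666, chromosome 12, 27334268 to 27342718) had a mean of 2.54 RPKM in control (317 fragments) and 2.305 RPKM under CUMS (290 fragments), a log2 ratio of -0.14 (-0.37 to 0.10), and its interval included 0. Igfbpl1 (gene 75426, chromosome 4, 45809507 to 45826827) lay between them and the coding Dlx genes, with 3.505 RPKM in control (141 fragments) and 2.575 RPKM under CUMS (105 fragments), a log2 ratio of -0.44 (-0.81 to -0.06). None of these passed 1.5-fold. The intervals of Dcx and Sox11 did not overlap those of Dlx1, Dlx2, Sp8 and Sp9, whereas they overlapped those of Dlx5, Dlx6 and Dlx6as1. The interval of Igfbpl1 overlapped those of all the other genes. The ratio of Sp9 to Dcx went from 1.88 in control to 1.14 in CUMS, and that of Dlx1 to Dcx from 4.84 to 3.64.

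**Figure D3:**
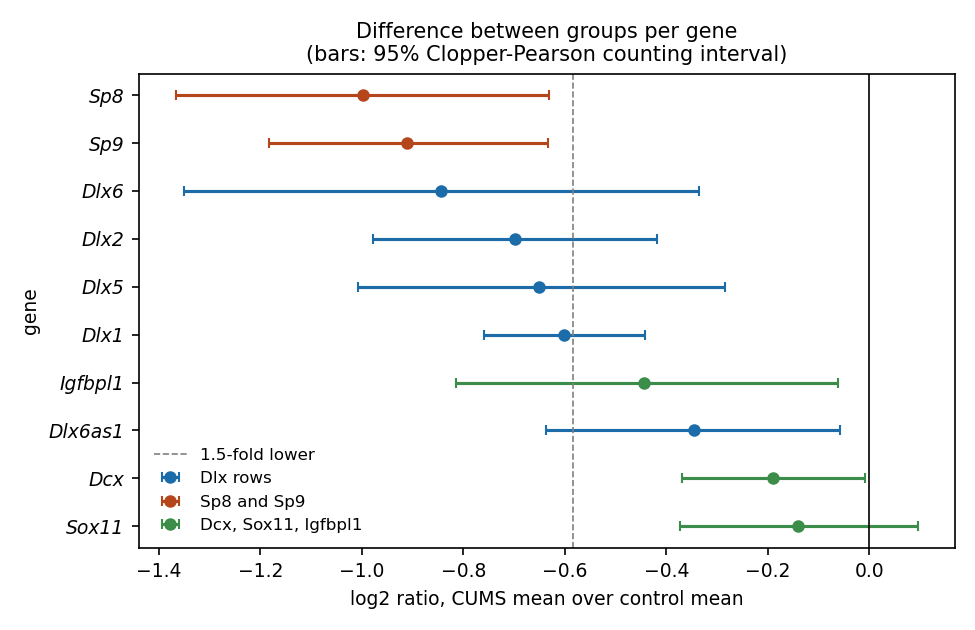
Log2 of CUMS over control RPKM for each gene, ordered by its size, with 95% Clopper-Pearson counting intervals as bars, a solid line at 0 and a dashed line at a 1.5-fold lower mean. Sp8 (-0.998) and Sp9 (-0.91) lie farthest to the left, and only the bar of Sox11 crosses 0.

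The order of the levels was much the same in both groups. In control, Dlx1 stood above all others. It was followed by Dlx5, Sp9, Dlx2 and Dlx6, between 5.915 and 7.965 RPKM and with overlapping intervals. Dcx, Dlx6as1, Igfbpl1, Sp8 and Sox11 came next in this order, and each of their intervals overlapped that of its neighbour, while those of Dlx6 and Dcx did not overlap. In CUMS, Dlx2 was above Sp9 (4.68 and 4.075 RPKM), Dcx was above Dlx6 (3.58 and 3.295 RPKM) and Sox11 was above Sp8. The interval of Sox11 in CUMS (2.05 to 2.59 RPKM) lay above that of Sp8 (1.15 to 1.74 RPKM), while those of Dcx and Dlx6 overlapped. Dlx1 again stood apart, and from Dlx5 down to Sox11 each interval overlapped that of its neighbour.

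**Figure D4:**
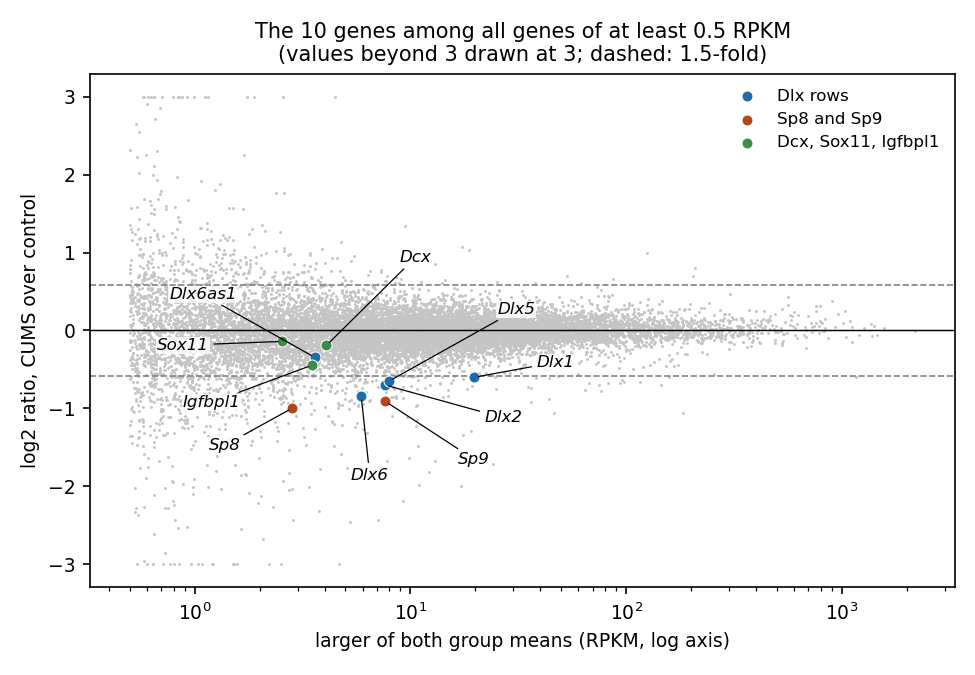
Log2 ratio against the larger group mean (RPKM, log axis) for the 14257 expressed genes in grey, with the 10 genes in color, dashed lines at 1.5-fold and ratios beyond 3 drawn at 3. The Dlx genes other than Dlx6as1 and the Sp genes lie at or under the lower dashed line, where 4.42% of the genes are, and Dcx and Sox11 lie within the grey band.

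Promoters were looked at because the means of these genes were all lower. RefSeq promoter windows (GRCm38.p6) were matched for 7 of the 10 genes, in 11 windows of which some overlap, and the 250 bases before the start were searched on both strands. The homeodomain core TAATTA was in 5 of the 11 windows, of Dcx, Dlx6as1 and Sp8, against 4.84% of 32851 windows, and the site of Dcx was counted in both of its overlapping windows. The GC box GGGCGG, a motif bound by Sp factors, was in 4 of the 11 windows, of Dlx2, Sox11, Sp8 and Sp9, against 32.7%. The TAATTA matches are printed with 12 bases on either side, 5′ to 3′ on the strand of the gene, with the motif in capitals. They lie on chr6:6869646-6869675, chr6:6869590-6869619 and chr6:6861840-6861869 (Dlx6as1, minus strand), chr12:118847359-118847388 (Sp8, plus strand) and chrX:143933241-143933270 (Dcx, minus strand).
Dlx6as1: gaaaattacaggTAATTAtctttgacggta
Dlx6as1: gaaaaattactcTAATTAtggctgcattta
Dlx6as1: taaattatcctcTAATTAtacaccagtgtc
Sp8: ctcttgctggttTAATTAgtttccttttat
Dcx: aaaaaaagcatgTAATTAatcataggaggt
A match describes the letters of these windows, not binding.

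The other transcription factors of the GABAergic lineage were lower in 17 of 21 genes and higher in 4, with a median log2 ratio of -0.33. More than 1.5-fold lower were 5 of them, and 0 were higher by that much. The largest differences were seen in Lhx8 (3.4 and 0.845 RPKM, log2 ratio -2.01), Nkx2-1 (2.565 and 0.67 RPKM, -1.94) and Gsx1 (0.71 and 0.28 RPKM, -1.34). Gsx1 rested on only 19 fragments in control and 7 in CUMS, with a wide interval (-2.94 to -0.14). Lhx8 and Nkx2-1 are factors of the medial eminence that in the adult mark septal and basal forebrain neurons, and Gsx1 is a factor of ventral progenitors. The most abundant ones differed little. Meis2, common in striatal and bulb neurons, had a log2 ratio of -0.10 (-0.18 to -0.02), Etv1 of -0.03 and Satb1 of 0.10, both with intervals that included 0.

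The genes that make and carry GABA were lower in 4 of 4, with a median of -0.69. Gad1 and Gad2 make GABA, and Slc32a1 loads it into vesicles. Their log2 ratios were -0.60, -0.88 and -0.78. Dlx1 stood in the same proportion to Gad1 in both groups, 0.125 of its RPKM in control and 0.125 in CUMS.

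Other genes of neuroblast migration and neurite outgrowth were mixed in direction. Of 22 genes, 21 were expressed (Erbb4 stayed under 0.5 RPKM), 13 were lower, 8 were higher and 0 passed 1.5-fold in either direction, with a median of -0.05. St8sia2, which makes the polysialic acid of migrating neuroblasts, had a mean of 2.56 RPKM in control and 1.87 RPKM under CUMS, a log2 ratio of -0.45 (-0.76 to -0.14), and its interval overlapped those of the 4 coding Dlx genes. The axon guidance receptor Robo2 (0.38) and the microtubule genes Stmn1 (0.31) and Stmn2 (0.19) had ratios above 0. Tubb3 (0.04) and Dclk1 (0.10) were close to 0. Stmn1, Stmn2, Tubb3 and Dclk1 are abundant in mature neurons too, with control means between 122.45 and 612.63 RPKM. The direction of this list therefore does not describe neuroblasts alone.

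Genes of progenitors and of the cell cycle were not lower as a group. Of 12 genes, 11 were expressed, 4 of them lower and 7 higher, with a median of 0.09. Sox2, a factor of neural stem cells and glia, had a mean of 17.28 RPKM in control and 13.19 RPKM under CUMS (log2 ratio -0.39, -0.56 to -0.22). Hes5, Pcna and Pax6 had ratios of -0.07, 0.08 and 0.09. The mitotic kinase Cdk1 had a mean of 0.28 RPKM in control (12 fragments) and 0.62 RPKM under CUMS (26 fragments), a log2 ratio of 1.15 (0.07 to 2.23). The proliferation gene Mki67 was below the minimum in both groups, with 40 and 26 fragments.

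**Figure D5:**
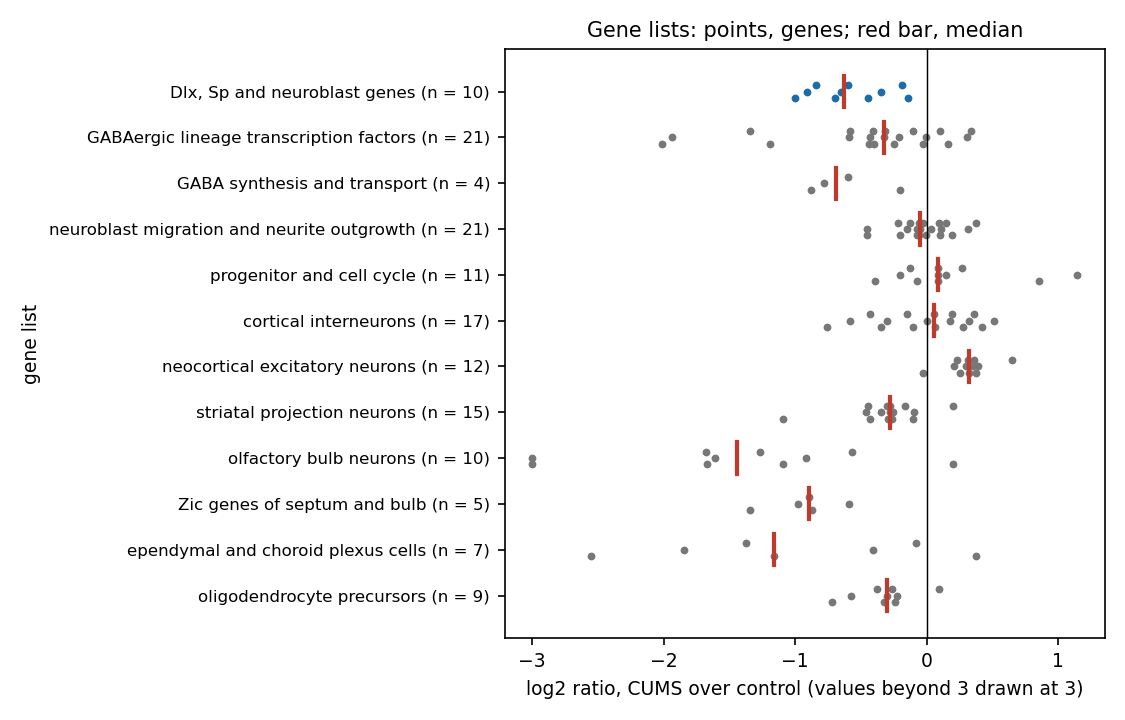
Log2 ratio of each gene (points) expressed in each group of genes, with the median as a red bar and ratios beyond 3 drawn at 3. The median of the genes described here is -0.63, between that of the cortical interneuron list (0.05) and that of the olfactory bulb list (-1.44).

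The mPFC borders on regions that are rich in Dlx genes, and markers of those regions were lower in CUMS too. Olfactory bulb genes were lower in 9 of 10 measured genes (Lhx5 was below the minimum), with a summed level of 110.8 RPKM in control and 73.26 RPKM under CUMS. Calb2, Doc2g and Cdhr1 had log2 ratios of -0.92, -1.68 and -0.56, and Gng13 of 0.20. Calb2 gave 36.075 RPKM of the control sum and 19.115 RPKM of the CUMS sum, and was not counted among the cortical interneuron genes below. Omp and S100a5, genes of olfactory sensory neurons, were listed at 0.01 RPKM under CUMS, the value that stands for 0. Set against a floor of 3 fragments, they were 16.2-fold and 5.37-fold lower. These bounds leave out the counting error in control. The counting intervals of their log2 ratios ended at -3.66 and -1.96. The median of this list was -1.44, also with these genes at their bounds. The Zic genes, transcription factors of the septum and the bulb, were lower in 5 of 5, with summed levels of 33.27 and 15.2 RPKM. Zic1 had a mean of 17.515 RPKM in control and 6.915 RPKM under CUMS (log2 ratio -1.34), and Zic2 and Zic4 had ratios of -0.98 and -0.89. Striatal genes were lower in 14 of 15, by less, with a median of -0.28 and summed levels of 798.4 and 672.7 RPKM. Here Ppp1r1b and Pde1b had ratios of -0.17 and -0.09, Adcy5, Adora2a and Penk of -0.28, -0.45 and -0.46, and Six3 of -1.09. A list of genes of choroid plexus and of ependymal cells, which line the ventricle beside the subventricular zone, was lower in 6 of 7 measured genes. Its summed levels were 20.1 and 11.4 RPKM. Enkur was higher (0.37) and Kl was close to 0 (-0.08), both with intervals that included 0. Foxj1, the regulator of motile cilia, had a ratio of -1.16, Clic6 of -1.37 and Ccdc153 of -1.84, and the choroid plexus gene Ttr was below the minimum with 1 and 0 fragments. Tmem212 had 18 and 3 fragments (-2.55, -5.0 to -0.82), and Rarres2 had a ratio of -0.41 with an interval that included 0. The part of these regions in the lower values of the Dlx, Sp and neuroblast genes was not tested, and in bulk tissue fewer cells of a type and less RNA per cell cannot be told apart.

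Most neocortical excitatory genes were higher in CUMS, and cortical interneuron genes were mixed. The labelled tissue was checked on the neocortical excitatory genes Slc17a7 (635.39 and 791.26 RPKM), Nrgn (692.45 and 900.34 RPKM), Camk2a (827.76 and 957.92 RPKM) and Tbr1 (36.765 and 45.155 RPKM). This check cannot tell the mPFC from other cortex, nor show whether adjoining tissue was included. Of the neocortical excitatory genes 11 of 12 were higher in CUMS, with a median of 0.32, and Emx1 had a ratio of 0.65. Cortical interneuron genes were lower in 7 of 17 and higher in 10, with a median of 0.05. Their counting intervals lay under 0 in 4 genes and above 0 in 5. The neuropeptide genes Sst, Npy, Cck and Vip had log2 ratios of 0.05, 0.27, 0.42 and 0.51, and Lamp5 of 0.33. Cort (8.44 and 4.995 RPKM, 62 and 37 fragments) and Sox6 (2.99 and 1.995 RPKM) were lower, with ratios of -0.76 and -0.58. Lhx6, which is also on the lineage list and was picked out after its values were seen, had a ratio of -0.43 (-0.63 to -0.23). The intervals of Dlx1, Dlx2, Dlx5 and Dlx6 lay under those of Sst, Npy, Cck, Vip and Lamp5, but overlapped those of Cort, Sox6 and Lhx6.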

How the data were processed

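Total RNA from the mPFC of 2 control and 2 CUMS libraries had been enriched for poly(A) RNA and sequenced by the authors as paired reads. Reads were trimmed with SolexaQA per the study's methods, the submitters' processing notes name mm10, TopHat 1.0.12 and Bowtie 0.11.3, and only unique alignments entered the RPKM. The annotation used is not given in the sources used here. The authors deposited RPKM, averaged over the libraries of a group, and the gene length. Columns of the authors' own comparison (a log2 ratio, its direction and a NOISeq probability) were not used.

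Log2 ratios were computed from the means as deposited. Depth was estimated from the step that 1 fragment adds to mean x length, in genes under 1000 bases with a product under 350 (406 control and 392 CUMS values). The steps of 67.7 and 67.2 RPKM x bases placed 86.5% and 86.2% of the values within 0.15 of a whole number, if both libraries of a group were equally deep. Fragments were rounded, given exact Clopper-Pearson intervals for ratios and exact Poisson intervals for levels (Python 3.11.15, SciPy 1.17.1). The depth estimate and the ratio intervals were tested on simulated Poisson counts, with equal depth of both libraries of a group and no variation between libraries. The estimate and the intervals assume the same, so unequal depths, variation between libraries and the gap to the study's read totals were not tested. PCR duplicates could not be removed. Lists used genes that reached 0.5 RPKM in a group.

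Members, lists and alternatives were chosen with earlier results of these data known. The band of 2 to 20 RPKM was added after the values were seen. From each list the 4 most abundant genes and up to 3 with the largest ratio whose interval left out 0 were named. Some genes that this rule would name are not reported here. With group means there was no test, and limma was not run. Dlx3 was not analysed here.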

Additional observations from a re-analysis of the deposited data

How the results depend on the processing

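No paired analysis was possible because each group is given as 1 mean, and for the same reason fits without a replicate or with a replicate block were not run. The median log2 ratio of the 5 Dlx rows, -0.65, lay between -0.66 and -0.60 over 8 alternatives, and that of the 10 genes, -0.63, between -0.63 and -0.59. These were pseudocounts of 0.1 and 0.5 RPKM, no minimum or a minimum of 1 RPKM, CUMS rescaled to a median of 0 or to an equal total, Dlx6 and Dlx6as1 added up, and the ratio of summed RPKM. The rescalings moved every ratio by 0.0151 and -0.0076, so that the medians could move by no more than that. The changes of minimum could alter neither the medians nor the count of genes past a fold threshold. Each gene stayed in, the lowest of their larger means being 2.54 RPKM (Sox11). The number of genes lower by more than 1.5-fold, 6, was 0 at a threshold of 2, since Sp8 lay just above 50% of control (50.1%), and 5 or 6 under the other 6 alternatives. The number of genes whose interval lay under 0, 9, was 6 at 0.5 times the estimated depth, where Dcx, Igfbpl1 and Dlx6as1 included 0, and 9 at 2 times that depth. Unequal depth of the libraries of a group would blur the estimated fragments.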

Other observations

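The closest relatives of these genes did not share one direction. Among the genes of the same families and the antisense neighbours, 12 of 16 rows reached 0.5 RPKM, with 7 lower, 5 higher and a median log2 ratio of -0.09. In the Sp family, Sp7, the osteoblast factor, was 1.92 RPKM in control (65 fragments) and 1.1 RPKM in CUMS (37 fragments), a log2 ratio of -0.80 (-1.45 to -0.22), whereas Sp4 was 2.64 and 3.405 RPKM, a log2 ratio of 0.37 (0.11 to 0.62). The Dcx relatives Dclk1, Dclk2 and Dclk3 had log2 ratios of 0.10, -0.15 and 0.09. Dlx4 had 0 and 2 fragments and Dlx6as2 had 3 and 0, so that no fold is given for either.

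The list of oligodendrocyte precursor genes was lower in 8 of 9. Their median was -0.30, with summed levels of 146.8 and 116.2 RPKM. The precursor markers Pdgfra and Cspg4, named after their values were seen, had log2 ratios of 0.09 (-0.05 to 0.24) and -0.24 (-0.41 to -0.07). Olig1, Olig2 and Sox10, which mature oligodendrocytes also express, and Gpr17 had log2 ratios of -0.33, -0.30, -0.58 and -0.38, and Enpp6, a gene of newly forming oligodendrocytes, of -0.72 (-1.49 to -0.03).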
